A study of Homo sapiens with 9 samples.

Results

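Cytosolic ribosomal proteins are the protein part of the ribosome that translates nuclear messages, and their genes carry the symbols RPS for the small subunit and RPL or RPLP for the large subunit. The members were taken by symbol alone, as every such gene with a probe set annotated to that symbol only, pseudogenes and the RPS6 kinases left out, and a gene with several probe sets was read from the brightest. Of 81 RefSeq symbols of this form, 61 genes were measured in this way, 22 of the small and 39 of the large subunit, among 18417 genes in all. A further 11 were only on probe sets shared with other symbols and carry no value (RPL6, RPL9, RPL13A, RPL21, RPL36A, RPL37, RPL39, RPS10, RPS12, RPS18 and RPS26). The other 9 were not analysed here.

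The cells were NCI-H295R, an established line from a human carcinoma of the adrenal cortex, in use as a model because it still produces the steroids of that tissue. After 24 h in growth medium, cells were kept for 48 h in growth medium with serum, insulin, transferrin and selenium (normal growth), in medium without any of these (starvation), or in serum-free medium with 10 mM metformin (starvation + metformin), with 3 GeneChip Human Gene 1.0 ST arrays per condition named A, B and C. Metformin is a biguanide drug against diabetes that inhibits complex I of the mitochondrial respiratory chain. The study's methods describe 3 independent experiments for normal growth and starvation. The metformin arrays are known from the sample labels alone, and nothing says that they came from separate cultures, so for them a p value is read against array-to-array scatter that could be purely technical. All groups are 1 cell line, and starvation removed insulin and transferrin together with serum, so these cannot be told apart. In bulk RNA such as this, fewer cells of a type and less RNA per cell cannot be told apart.

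A ribosome holds an equal share of nearly every ribosomal protein, and cells make these proteins in amounts that match. Their messages are abundant and stable, and most begin with a C followed by a run of pyrimidines at the very 5' end, the terminal oligopyrimidine (TOP) tract, through which mTOR and the RNA-binding protein LARP1 set how much of the message is translated. When nutrients, insulin or energy run short, translation of TOP messages drops fast, often with little change in how much message there is. Arrays measure the message only, so translation was not seen here.

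The windows that follow are shown because the tract lies at the start of the message. Among the members called after metformin, some annotated windows match it and some do not. They are RefSeq start sites on GRCh38.p14, with 10 bases before the annotated start and 20 from it, in the sense of the gene. Capitals mark a C at the annotated start followed by at least 4 C or T bases, read on the strand of the gene only. The first 5 are the members called after metformin, RPL7A has the longest tract among the members, RPS6 encodes the classic phosphorylated ribosomal protein, and RPS27L is the sister gene of RPS27.
RPS23, chr5:82278335-82278364, minus strand: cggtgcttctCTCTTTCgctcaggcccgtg
RPL12, chr9:127451387-127451416, minus strand: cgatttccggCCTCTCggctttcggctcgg
RPS27, chr1:153990752-153990781, plus strand: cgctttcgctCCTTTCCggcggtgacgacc
RPL17, chr18:49492446-49492475, minus strand: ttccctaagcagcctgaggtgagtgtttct
RPS4X, chrX:72277229-72277258, minus strand: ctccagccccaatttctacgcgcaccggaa
RPL7A, chr9:133348208-133348237, plus strand: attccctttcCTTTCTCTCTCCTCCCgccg
RPS6, chr9:19380217-19380246, minus strand: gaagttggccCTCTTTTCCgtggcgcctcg
RPS27L, chr15:63157458-63157487, minus strand: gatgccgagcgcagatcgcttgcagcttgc

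The tract was found at 36 of 60 annotated starts of members (60.0%), against 1429 of 35116 starts of all genes in the table (4.07%). Those 36 starts belonged to 36 of the 50 members that the table held, the tract ran from 5 to 16 bases, and its median length was 8. RPS23 had a tract of 7 bases and RPL12 of 6, while the single annotated windows of RPL17 and RPS4X did not hold these letters. A match is a description of the annotated start, and no match says only that the letters are not in that window.

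The deposited values are log2 expression values after RMA, which corrects background, sets the arrays to a common distribution and summarises the probes of a set. The median of the 61 members was 11.43 to 11.51 on the normal growth arrays, 11.47 to 11.54 on the starved arrays and 11.66 to 11.69 on the metformin arrays. The 3 metformin arrays thus lay above all 6 others, and the starved and normal growth arrays overlapped. From 41 to 43 of the 61 members were brighter than 90% of the probe sets on each array, which speaks of probe brightness and not of numbers of transcripts. RPL10L, a gene known from testis, was the only member below the array median, at 5.44 to 5.91. Array B had the lowest value of its group for 37 members under normal growth, for 45 starved and for 39 with metformin. Part of the scatter was thus shared by the members, and the same count over other genes was not made. The 90th percentile of all probe sets was also lowest on array B under normal growth (10.07) and starvation (10.05). With metformin that percentile was lowest on array C (10.03). Without array B of the starved group the median change with metformin was 0.133, and without array B of the metformin group 0.165, beside 0.154 with all arrays. Over all probe sets arrays of 1 group correlated at 0.99 to 0.997, and arrays of different groups at 0.984 to 0.997.

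As a list, adrenocortical markers were bright on every array, with a mean level of 10 adrenocortical markers between 8.95 and 9.53 on the log2 scale. Markers of fibroblasts averaged 5.21 to 5.38, of endothelium 4.11 to 4.38, of immune cells 3.98 to 4.27 and of other epithelia 5.72 to 5.97, each list mean below the median of all probe sets (6.04 to 6.16) on each array. Single markers were brighter: FAP (6.97 to 8.35), COL1A1 (6.99 to 7.45) and COL3A1 of the fibroblast list and EPCAM (7.55 to 8.32) of the epithelial list were above that median on all 9 arrays, while no endothelial or immune marker was on any. Some adrenal markers were below that median: CYP11B1 on all 9 arrays (5.72 to 6.02), MC2R on every array without metformin (4.95 to 5.38) and HSD3B2 on every metformin array (5.42 to 6.02). None of the 7 fibroblast, 5 endothelial and 3 immune markers was called in any comparison by limma, and without adjustment p was under 0.05 for at most 2 fibroblast markers in a comparison and for none of the others. FAP had the widest changes of them, -0.92 with starvation (limma adjusted p = 0.146) and 0.55 with metformin against starvation (limma adjusted p = 0.1). The adrenal markers did move: HSD3B2, which turns pregnenolone into progesterone, was called lower after starvation (-1.99), the only call among the 10. With metformin against starvation MC2R, the ACTH receptor, was called higher (1.02), and HSD3B2 (-1.33) and NR5A1, the steroidogenic transcription factor (-0.46), were called lower. Against normal growth 1 adrenal marker was called higher and 4 lower, and EPCAM was the only epithelial marker called (0.57 higher). The part of these shifts in the ribosomal protein results was not tested.

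Serum starvation for 48 h left the messages of the cytosolic ribosomal proteins close to where they were under normal growth. In the comparison of starvation with normal growth, which asks what the loss of serum and insulin does, no member was called higher or lower by limma at an adjusted p under 0.05, and the methods' t-test also called 0 in each direction. Among all genes 0.0652% were called higher and 0.163% lower. Without adjustment p was under 0.05 for 1 member upward and 1 downward (1.64% each), beside 4.12% and 5.77% of all genes. The median log2 change of the 61 members was -0.003 (all genes -0.001), 30 members were above 0 and 31 below, and the single values lay between -0.28 and 0.17. The 95% intervals of all members lay within -0.62 and 0.33, so a change of 2-fold or more in either direction was outside the interval of each member.

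The 5 members with the largest change had values as follows, none of them called. RPL32, a large subunit protein, had 7.07, 7.23 and 7.40 on the normal growth arrays and 7.02, 6.70 and 7.15 on the starved ones, a log2 change of -0.28 (SE 0.14) with groups that overlapped. RPL23, a large subunit protein that also binds MDM2, the ubiquitin ligase of p53, had 6.93, 6.82 and 6.87 and then 6.82, 6.46 and 6.71, a change of -0.21 (SE 0.10). Array B of the starved group held the lowest value for both genes, and the RPL23 groups met at the second decimal.
RPL22, a large subunit protein that cells can do without, had 6.26, 6.32 and 6.27 under normal growth and 6.42, 6.37 and 6.57 under starvation, a change of 0.17 (limma adjusted p = 0.572). RPL39L, the testis-enriched sister gene of RPL39, went from 7.30, 7.32 and 7.25 to 7.17, 7.05 and 7.16, a change of -0.16 (limma adjusted p = 0.478). Neither of these pairs of groups overlapped, and they were the pair of members at an unadjusted p under 0.05. RPS24, a small subunit protein mutated in some families with Diamond-Blackfan anaemia, had 8.55, 8.47 and 8.52 and then 8.40, 8.27 and 8.49, with overlapping groups and a change of -0.13.

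**Figure D1:**
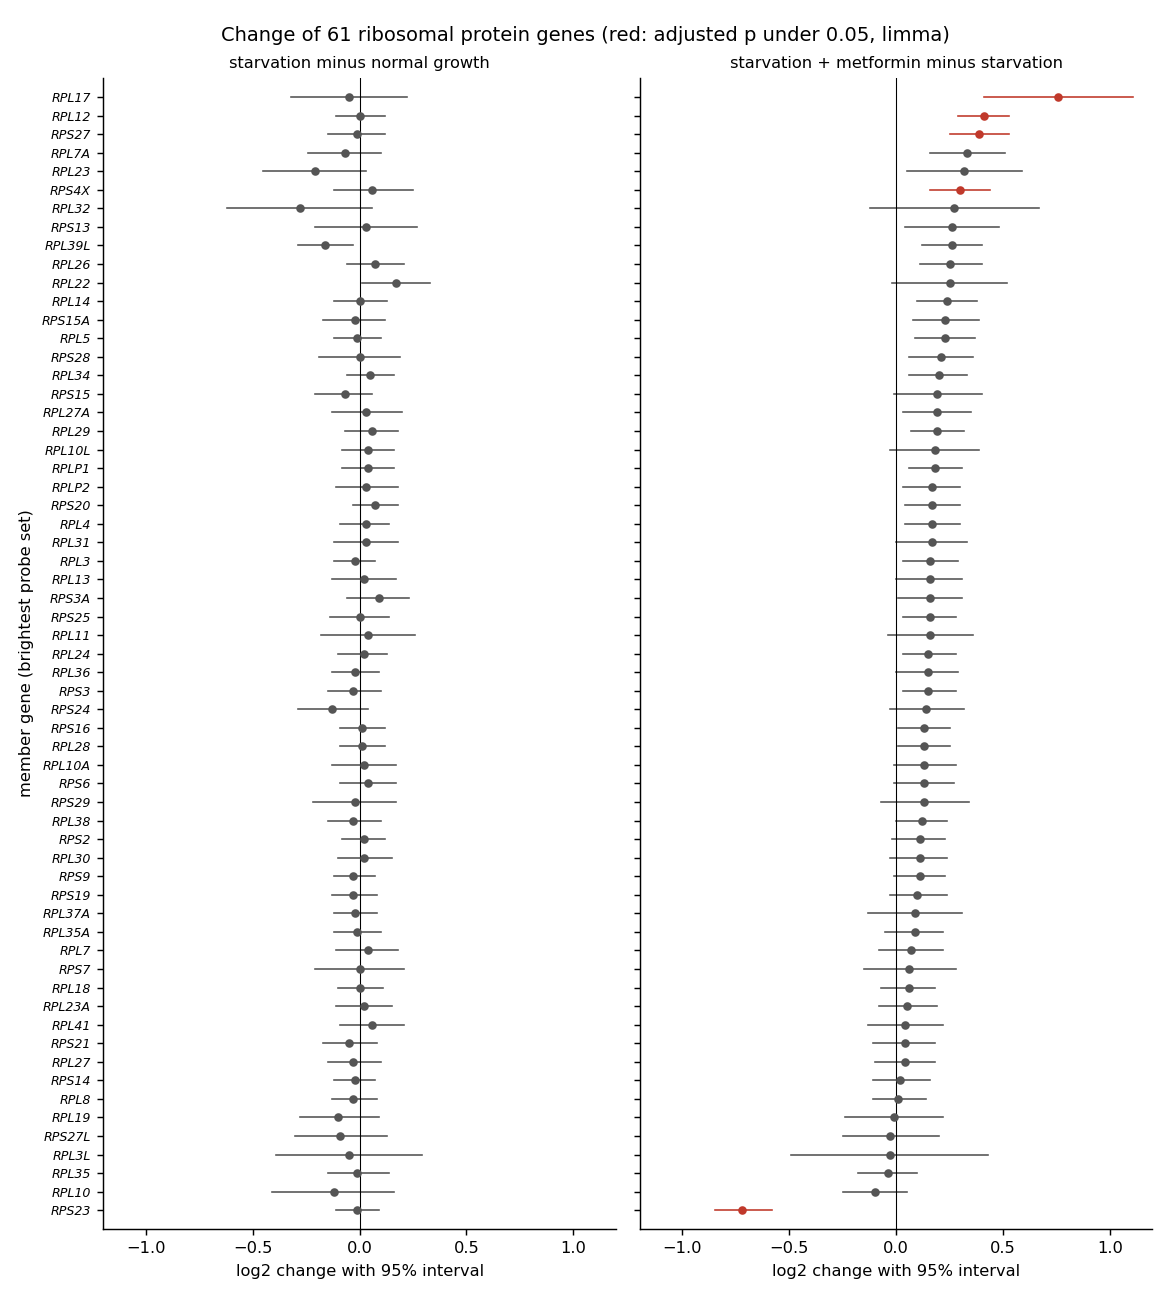
Log2 change of each of the 61 members with its 95% interval (limma), starvation minus normal growth on the left and starvation + metformin minus starvation on the right, genes ordered by the right panel; red marks an adjusted p under 0.05. The left panel stays between -0.28 and 0.17 with no call, while in the right panel 55 of 61 points are above 0, 4 of them are called higher and RPS23 alone is called lower.

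Members with a known place outside plain ribosome structure had changes near 0 under starvation as well. RPS6, whose phosphorylation by S6 kinase follows growth signals, had 11.62, 11.57 and 11.48 under normal growth and 11.62, 11.54 and 11.62 under starvation (0.04, 95% interval -0.09 to 0.17). RPL5 and RPL11 travel with 5S rRNA and bind MDM2 when ribosome assembly fails, and their changes were -0.01 (95% interval -0.12 to 0.10) and 0.04 (-0.18 to 0.26). The stalk proteins RPLP1 and RPLP2, which recruit elongation factors to the large subunit, changed by 0.04 (-0.08 to 0.16) and 0.03 (-0.11 to 0.18). RPS19, the gene most often mutated in Diamond-Blackfan anaemia, changed by -0.03 (-0.13 to 0.08). None of these 6 genes passed the test.

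When metformin was added to starvation, most ribosomal protein messages read slightly higher and RPS23 read clearly lower. Of the 61 members 4 were called higher, namely RPL17, RPL12, RPS27 and RPS4X, and 1 was called lower, RPS23 (limma, adjusted p under 0.05). The same test called 3.14% of all genes higher and 2.89% lower, beside 6.56% and 1.64% of the members. The change was above 0 for 55 of 61 members, with a median of 0.15 on the log2 scale and a middle range of 0.09 to 0.20, against a median of -0.026 over all genes. For 42 members all 3 metformin arrays were above all 3 starved arrays, and for 1 member, RPS23, all were below, which is 68.9% and 1.64% of the members beside 15.7% and 15.2% of all genes. The median was 0.14 for the 22 small subunit members and 0.16 for the 39 large subunit members.

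**Figure D2:**
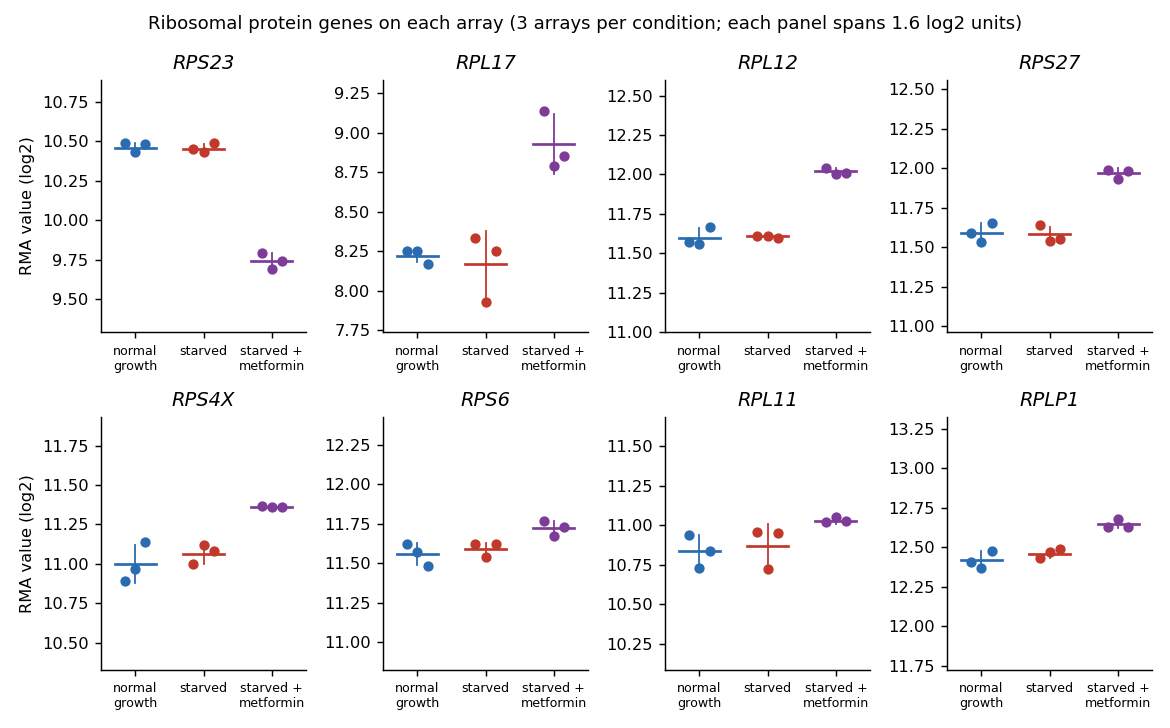
RMA values on the log2 scale for 8 members on each of the 9 arrays (points, 3 per condition; bars are the mean and lines 1 SD each way), every panel spanning the same number of log2 units. RPS23 is near 10.5 without metformin and at 9.69 to 9.79 with it, RPL17, RPL12, RPS27 and RPS4X are higher on every metformin array, and RPS6, RPL11 and RPLP1 shift less.

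RPS23, a protein of the decoding centre of the small subunit where codon and anticodon meet, had 10.49, 10.43 and 10.48 on the normal growth arrays, 10.45, 10.43 and 10.49 on the starved arrays and 9.79, 9.69 and 9.74 on the metformin arrays. The 6 arrays without metformin fell within 0.06 of each other, and every metformin array was well below them. RPS23 fell 1.64-fold with metformin, a log2 change of -0.72 (SE 0.06, 95% interval -0.85 to -0.58, limma adjusted p = 0.0119). Only 1 probe set of the array carries this gene's symbol alone, so no other set could be set beside it.

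RPL17, which lines the tunnel through which the new protein leaves the large subunit, had 8.33, 7.93 and 8.25 on the starved arrays and 9.14, 8.79 and 8.85 on the metformin arrays. The lowest metformin array was above the highest starved array, and the spread within each group was the widest of the 5 called genes (SD 0.21 and 0.19, n = 3). RPL17 rose 1.69-fold, a log2 change of 0.76 (SE 0.14, limma adjusted p = 0.0461), the largest size of change among the members. It too has a single probe set.

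RPL12 sits at the base of the stalk where elongation factors dock. It had 11.61, 11.61 and 11.60 on the starved arrays and 12.04, 12 and 12.01 on the metformin arrays. The groups were tight and far apart, and RPL12 rose 1.33-fold (log2 0.41, SE 0.05, limma adjusted p = 0.0189). Of its other 3 probe sets, a pair gave 0.42 and 0.43 with adjusted p = 0.0235 and 0.0222 in limma, and the dimmest gave 0.12, not called.

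RPS27, a zinc finger protein of the small subunit also known as metallopanstimulin, had 11.64, 11.54 and 11.55 starved and 11.99, 11.93 and 11.98 with metformin. RPS27 rose 1.31-fold (log2 0.39, SE 0.06, limma adjusted p = 0.0264), and its other probe set gave 0.43. RPS4X, the X-linked gene of small subunit protein S4, had 11, 11.12 and 11.08 starved and 11.37, 11.36 and 11.36 with metformin, again without overlap. It rose 1.23-fold (log2 0.30, SE 0.06, limma adjusted p = 0.0452).

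Just short of the threshold were several members of the large subunit. RPL7A had 11.14, 10.93 and 11.05 starved and 11.38, 11.40 and 11.35 with metformin (log2 0.33, SE 0.07, limma adjusted p = 0.0611). RPL26, known to bind the p53 message, had 9.38, 9.26 and 9.26 and then 9.56, 9.56 and 9.54 (log2 0.25, SE 0.06, limma adjusted p = 0.0744). Neither pair of groups overlapped, and neither gene was called. RPL5 had 12.74, 12.65 and 12.68 and then 12.97, 12.91 and 12.89 (log2 0.23, SE 0.06, limma adjusted p = 0.0857).

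No member changed by as much as 2-fold, the fold the study's methods ask for. No member was called higher when every array was shifted to a common median, which left 0 higher and 1 lower in place of 4 and 1, and leaving out starved array A, B or C or metformin array A left 0 calls in either direction, for members and for all 18417 genes alike, while 1 higher and 1 lower were left without metformin array B or C. The median change of the members moved less, from 0.129 to 0.165 over all alternatives.

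Of the 56 members not called, 38 had all 3 metformin arrays above the starved ones and 18 had groups that overlapped, with changes between -0.10 and 0.33. Over all genes, called or not, 15.7% had all 3 metformin arrays above the starved ones. RPS6 had 11.77, 11.67 and 11.73 on the metformin arrays, all above the starved ones (0.13, 95% interval -0.01 to 0.27). RPL11 had 11.02, 11.05 and 11.03 against 10.96, 10.72 and 10.95 (0.16, 95% interval -0.04 to 0.36). The metformin arrays of RPL11 were close together, and its starved spread came from array B.
RPLP1 had 12.63, 12.68 and 12.63 against 12.43, 12.47 and 12.49 (0.18, 95% interval 0.06 to 0.31), and RPLP2 changed by 0.17 (0.03 to 0.30). RPS19 changed by 0.10 (-0.03 to 0.24). None of these 5 passed the test across all probe sets.

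Besides RPS23, 5 members had a change below 0, none called. RPL10, which joins the large subunit last and completes its tRNA sites, had 9.30, 9.14 and 9.26 starved and 9.12, 9.12 and 9.16 with metformin (-0.10, 95% interval -0.25 to 0.05). The changes of RPL35, RPL3L, RPS27L and RPL19 lay between -0.04 and -0.01. At the bright end, RPL8 (0.01, 95% interval -0.11 to 0.14) and RPS14 (0.02, -0.11 to 0.16) stayed close to 0.

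Sister genes were set beside their partners as changes, not levels, since probes differ. RPS27 rose by 0.39 with metformin, and RPS27L, a p53 target whose protein can replace RPS27, had 7.49, 7.20 and 7.41 starved and 7.32, 7.41 and 7.28 with metformin (-0.03, 95% interval -0.25 to 0.20). RPL3L, a copy known from heart and skeletal muscle, changed by -0.03 (95% interval -0.49 to 0.43) and RPL3 by 0.16 (0.03 to 0.29). RPL10L changed by 0.18 (-0.03 to 0.39). RPL39L had 7.42, 7.37 and 7.39 with metformin against 7.17, 7.05 and 7.16 starved (0.26, 95% interval 0.12 to 0.40), without overlap and not called (limma adjusted p = 0.0695). The differences between sisters were not tested.

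**Figure D3:**
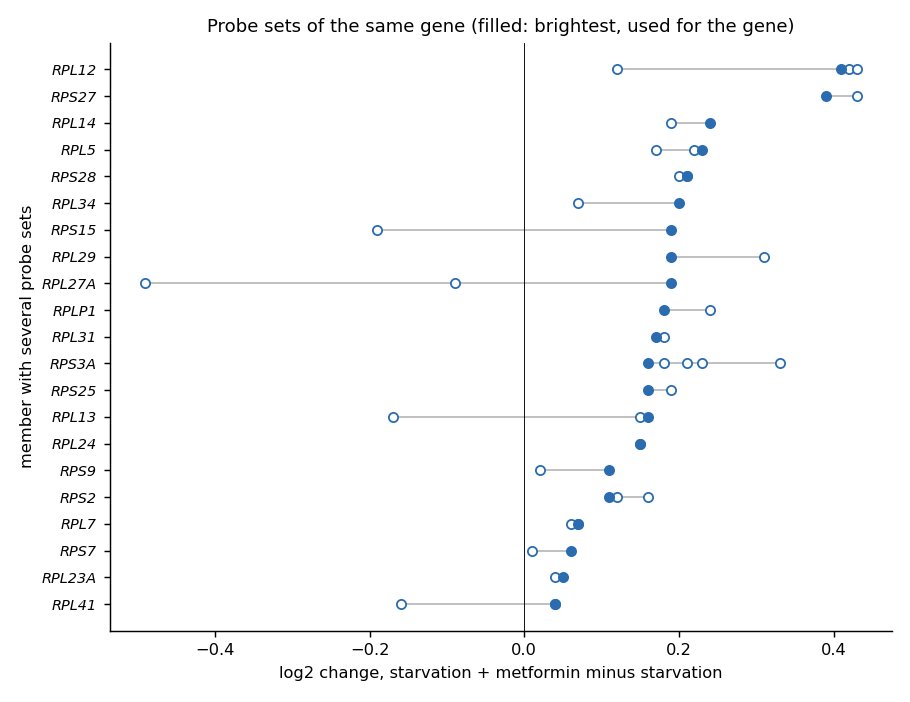
Log2 change, starvation + metformin minus starvation, for every single-symbol probe set of the 21 members that have several; filled points are the brightest set, used for the gene. In 17 genes all sets are above 0, and in RPL13, RPL27A, RPL41 and RPS15 a dimmer set lies below 0.

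The 61 members were read on 94 single-symbol probe sets, and 21 members had several. With metformin against starvation all sets were above 0 in 17 of these, none had all sets below 0, and 4 had mixed signs. RPL27A, a large subunit protein, was the widest case, with 0.19 on the brightest set and -0.09 and -0.49 on sets of mean level 6.29 and 6.46, the last of which was called lower (limma adjusted p = 0.0411). RPS3A, a small subunit protein on 5 sets, lay between 0.16 and 0.33 on all of them. Ribosomal protein genes have many processed pseudogenes of near-identical sequence, so probes of a set may read more than 1 locus. A pair of RPL41 sets held identical values on every array.

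Against normal growth, cells with starvation and metformin together showed 11 members called higher and 1 lower (18.0% and 1.64%), beside 6.15% and 6.36% of all genes. The median change was 0.14 (all genes -0.020), 51 of 61 members were above 0, and 40 had all metformin arrays above and 2 all below the normal growth arrays (65.6% and 3.28%, beside 16.8% and 19.0% of all genes). This comparison uses the same metformin arrays as the one before, so it is no second experiment, and all 5 members called there were called here. RPS23 fell by 0.73 on the log2 scale (SE 0.05, limma adjusted p = 0.00504).

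The 11 genes called higher rose by 0.22 to 0.71 on the log2 scale. RPL17 had 8.25, 8.25 and 8.17 under normal growth (0.71, limma adjusted p = 0.015), RPL12 had 11.57, 11.56 and 11.67 (0.42, adjusted p = 0.012), RPS27 had 11.59, 11.53 and 11.65 (0.38, adjusted p = 0.0158) and RPS4X had 10.89, 10.97 and 11.14 (0.36, adjusted p = 0.0368). In all 4 every metformin array was above every normal growth array.
RPL26 had 9.26, 9.25 and 9.16 under normal growth and rose by 0.33 (limma adjusted p = 0.018). RPL7A, a large subunit protein first met as part of a fusion with the TRK oncogene, had 11.12, 11.04 and 11.17 and rose by 0.27 (adjusted p = 0.0378). RPL5 had 12.71, 12.68 and 12.71 and rose by 0.22 (adjusted p = 0.0445).
The remaining 4 were RPL34 (0.25, limma adjusted p = 0.0289), RPL29 (0.25, 0.0373), RPS20 (0.25, 0.038), a protein of the small subunit head, and RPL14 (0.24, 0.0396). These calls rest on the brightest set of each gene. The other sets of RPL34 (0.06), RPL29 (0.30), RPL14 (0.19) and RPL5 (0.19 and 0.21) were not called. The other set of RPS27 (0.41) and a pair of RPL12 (0.43 and 0.45) were called, and the dimmest of RPL12 (0.17) was not. For RPL29, a lysine-rich protein also known as a heparin-binding protein, the normal growth arrays read 11.47, 11.37 and 11.46 and the metformin arrays 11.69, 11.68 and 11.69. Among the members not called RPL22 had the largest change, 0.42 (limma adjusted p = 0.0534), with 6.81, 6.81 and 6.49 on the metformin arrays.

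RPL10 had 9.27, 9.20 and 9.60 under normal growth and was, besides RPS23, the only member with all metformin arrays below (-0.22, 95% interval -0.49 to 0.05, not called). Of RPS6 (0.17), RPL11 (0.20), RPLP1 (0.22), RPLP2 (0.20) and RPS19 (0.08), each read from its brightest set, none was called against normal growth. The other set of RPLP1, of nearly equal brightness, was called higher (0.30, limma adjusted p = 0.0279). For RPS3A the brightest set was not called (0.25, limma adjusted p = 0.0614), and all its other sets were called higher (0.29 to 0.44). A dim set of RPL27A was called lower (-0.45, limma adjusted p = 0.0495). RPL3 (0.14), RPL10L (0.22), RPL39L (0.10), RPL3L (-0.08) and RPS27L (-0.11) were not called either. Shifting the arrays to a common median left 5 members higher and 1 lower in place of 11 and 1, and no member was called higher without normal growth array A or B, and 1 without C. Without metformin array A or B 4 were called.

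**Figure D4:**
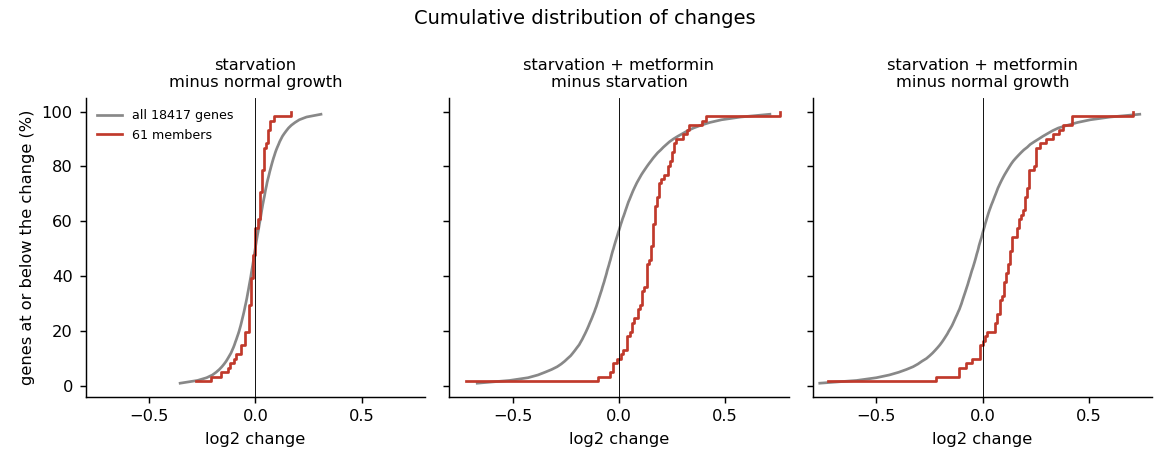
Share of genes at or below each log2 change, for the 61 members (red steps) and all genes (grey, drawn at percentiles 1 to 99), one panel per comparison. The curves cross near 0 for starvation against normal growth, and in both panels with metformin the red curve lies to the right of the grey one through most of its height, with medians of 0.15 and 0.14.

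The members were also split by the tract at their annotated start, as a description. With metformin against starvation the median change was 0.15 for the 36 members with the tract, 33 of them above 0, and 0.17 for the 14 in the table without it, 12 of them above 0. For starvation against normal growth the medians were 0.004 and -0.023. Of the genes called after metformin, the windows of RPS23, RPL12 and RPS27 held the tract and those of RPL17 and RPS4X did not. A window without a match does not say that the message lacks the tract.

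Among other genes of the ribosome and of translation, most passed the test in neither direction. With metformin against starvation 3.14% of all genes were called higher and 2.89% lower, with a median of -0.026. The list of elongation factors and other genes taken as TOP messages held 12 genes, ETF1 and GSPT1 among them. The tract was found in 5 of the 8 of these with annotated starts, so not every message of the list was shown to carry it. With metformin against starvation 2 of the 12 genes were called higher and 0 lower (median 0.092). These were EEF1D, a subunit of the exchange factor that reloads eEF1A with GTP (0.46, limma adjusted p = 0.0199), and PABPC1, the poly(A)-binding protein (0.32, 0.0331). Of 25 initiation factors 2 were called higher and 0 lower (median -0.023), the helicase EIF4A2 (0.46, 0.0174) and EIF3F, a subunit of the eIF3 scaffold (0.33, 0.0341). Of 5 other ribosome components RPL26L1, a sister of RPL26, was called lower (-0.33, 0.0431) and none higher (median 0.007), while RPL26 itself changed by 0.25.

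For the groups that follow, 56.7% of all genes were below 0 with metformin against starvation, with a median of -0.026, and 3.14% were called higher and 2.89% lower. Of 47 assembly factors 1 was called higher and 3 lower, 37 were below 0, and the median was -0.18. UTP14A of the small subunit processome (-0.71, limma adjusted p = 0.0197), the kinase RIOK2 of late small subunit maturation (-0.47, 0.0449) and NOP16 of the nucleolus (-0.44, 0.0459) fell, and NMD3, the export adaptor of the large subunit, rose (0.35, 0.0388). Of 14 genes of RNA polymerase I, which makes the large rRNA precursor, 0 were called higher and 2 lower and 9 were below 0 (median -0.14), POLR1A (-0.53, 0.0452), the largest subunit, and POLR1E (-0.48, 0.0174). Of 73 mitochondrial ribosomal proteins 0 were called higher and 2 lower, MRPL16 (-0.41, 0.0445) and MRPL20 (-0.37, 0.0246), with a median of -0.053, so that the share called lower was near that of all genes. Of 10 regulators 0 were called higher and 2 lower (median -0.072), MYC, the transcription factor that drives ribosome synthesis (-0.77, 0.0183), and CDKN1A, the p53-induced cell cycle inhibitor (-0.63, 0.0419).

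**Figure D5:**
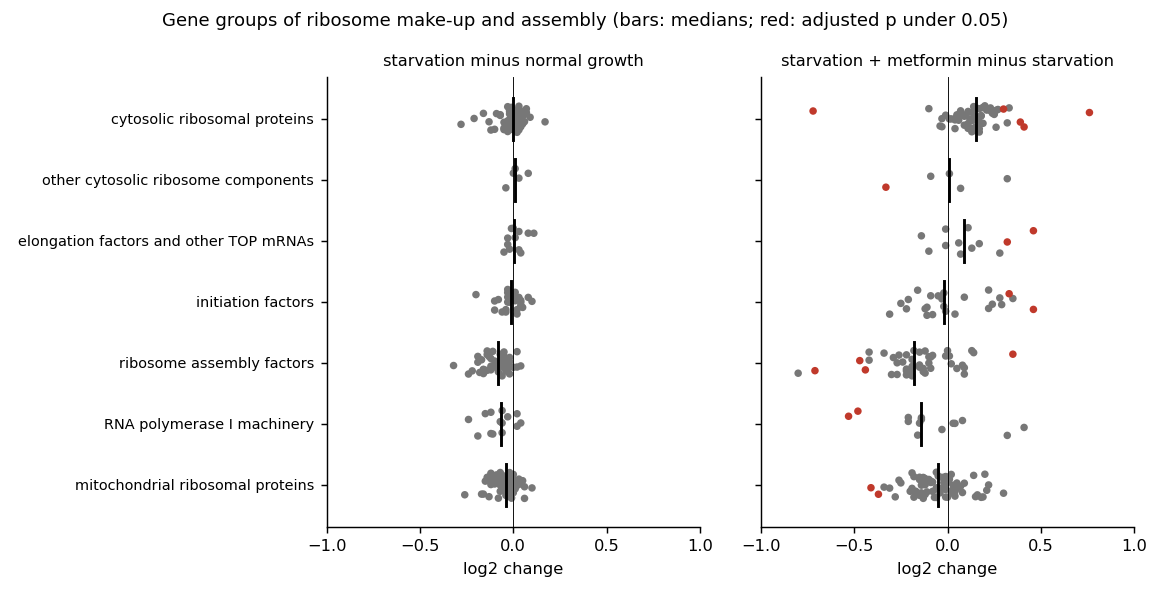
Log2 changes of each gene in 7 groups (points, spread vertically for legibility; black bars are medians; red marks an adjusted p under 0.05), starvation minus normal growth on the left and starvation + metformin minus starvation on the right. On the right the median of the cytosolic ribosomal proteins is 0.15 and that of the assembly factors -0.18.

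Against normal growth the metformin arrays had 0 assembly factors called higher and 17 of 47 lower, with 43 below 0 (55.6% of all genes) and a median of -0.24 (all genes -0.020), led by UTP20 (-1.12, limma adjusted p = 0.0217) and UTP14A (-0.96, 0.00712), both of the small subunit processome. Of all genes 6.15% were called higher and 6.36% lower in this comparison. RNA polymerase I had 1 higher and 4 lower of 14, initiation factors 6 higher and 3 lower of 25, elongation factors and other TOP messages 4 higher and 0 lower of 12, mitochondrial ribosomal proteins 2 higher and 5 lower of 73, other ribosome components 0 and 1 of 5, and regulators 0 and 2 of 10. Within the initiation factors the largest called rise was that of EIF4A2 (0.56, limma adjusted p = 0.0055) and the largest fall that of EIF6 (-0.41, 0.0196). The eIF3 subunits EIF3E (0.37, 0.0447), EIF3F (0.34, 0.0188), EIF3L (0.33, 0.0164) and EIF3H (0.31, 0.0384) rose, while EIF3B (-0.28, 0.04) fell.
Starvation against normal growth gave 0 calls by limma in each of these 7 groups, and without adjustment p was under 0.05 for 0 genes upward and, downward, for 9 assembly factors, 3 mitochondrial ribosomal proteins, 1 initiation factor and 1 gene of RNA polymerase I (5.77% of all genes). The assembly factors had a median of -0.082 with 44 of 47 below 0, beside -0.003 for the cytosolic ribosomal proteins and 50.4% below 0 with a median of -0.001 over all genes.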

How the data were processed

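Total RNA of NCI-H295R cells was hybridised to 9 arrays, 3 per condition, and groups were taken from the sample titles. What the authors deposited is a table of log2 values with 1 column per array. Tools named in the submitters' processing notes are Affymetrix Expression Console, limma and RMA, and Affymetrix Power Tools appears in the methods. For none of them is a version given in the sources used here. Since RMA pulls the arrays to a common distribution, a change shared by most genes would be lost, and values are relative to the other messages. No further normalization was applied. Precision is limited by the number of arrays, 3 per group.

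Of 33297 probe sets, 19460 had 1 gene symbol in the platform annotation, 1754 had several and 12083 had none. All probe sets entered limma 3.58.1 (lmFit and eBayes, R 4.3.3), fitted to the 6 arrays of the groups compared, without a block. P values were adjusted over all probe sets by the method of Benjamini and Hochberg and called under 0.05 at any fold. The code was tested on simulated data. Counts over all genes use the brightest single-symbol probe set of each of 18417 genes. An exact permutation of 3 against 3 arrays cannot give a two-sided p below 0.1, so none is printed. Intervals are 95% intervals of the fit.

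The members and the lists of companion genes and markers were chosen with earlier results of these data known. Named members were the 12 largest rises and falls called per comparison (or the 5 largest changes where under 5 passed), plus RPLP1, RPLP2, RPS6, RPL5, RPL11, RPS19 and members with a sister gene, and up to 4 called genes per companion list. In the comparisons where the rule did not name them, RPL7A, RPL26, RPL22, RPL35, RPL19, RPL8, RPS14, RPS3A, the 4 genes with discordant probe sets and companion genes outside the rule were chosen after their values were seen. Alternatives were all 9 arrays in 1 fit, arrays shifted to a common median and repeated quantile normalization. Others left out dim probe sets (mean under the 40th percentile), tested single-symbol probe sets alone or averaged probe sets by gene. Further ones were eBayes with trend and robust settings, a block for the replicate letter, Student's t-test and leaving out each array. The study's methods name Student's t-test apart from their array analysis. Start sites and sequences are from RefSeq (GRCh38.p14), matched by symbol, with 50 members in that table.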

Additional observations from a re-analysis of the deposited data

How the results depend on the processing

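The median change of the members kept its sign under every alternative with metformin, at 0.129 to 0.165 against starvation and 0.116 to 0.151 against normal growth, and stayed between -0.02 and 0.019 for starvation against normal growth, where 0 members were called under any alternative. Counts of calls moved far more. Against starvation, 4 members were called higher, and 12 with all 9 arrays in 1 fit, 9 with dim probe sets left out, 9 with single-symbol probe sets only, 20 with trend and robust eBayes and 0 with arrays shifted to a common median. Against normal growth, 11 were called higher, and 19 with dim probe sets left out, 19 with single-symbol probe sets only, 24 with trend and robust eBayes and 5 with arrays shifted to a common median. Student's t-test called 3 and 10 members higher and 1 lower in each, RPL17 and RPS4X not among them. Leaving out 1 array at a time gave 0 to 1 higher and 0 to 1 lower against starvation, and 0 to 9 higher and 1 lower against normal growth. The letters A, B and C are not said to mark shared experiments, so arrays of 1 letter were not treated as pairs. Over all probe sets, deviations of same-letter arrays from their group means correlated at r = 0.09, 0.134 and 0.024 (A, B and C) for starvation against normal growth. The values were 0.294, -0.137 and -0.249 for metformin against starvation, and -0.088, 0.01 and -0.164 for metformin against normal growth. For the members alone, array B was lowest of its group for 37 members under normal growth, 45 starved and 39 with metformin. Whether the letter marks a shared source was not tested. With the letter as a replicate block 0 members were called higher and 0 lower in each comparison. Over the alternatives the adjusted p of RPS23 ran from 0.000521 to 0.113 against starvation, with a change of -0.74 to -0.69. The alternatives were followed gene by gene for the members named by the rule (17, 17 and 23 genes in the 3 comparisons), not for the others, and among these the signs that turned were of uncalled changes near 0. For starvation against normal growth RPL5 was at 0.01 after repeated quantile normalization, and leaving out 1 array at a time moved RPL5 from -0.03 to 0.01, RPL11 from -0.02 to 0.12, RPLP2 from -0.00 to 0.08, RPL3L from -0.18 to 0.07 and RPS27 from -0.04 to 0.02. With metformin against starvation it moved RPS27L from -0.11 to 0.03 and RPL3L from -0.17 to 0.12, and against normal growth RPL3L from -0.23 to 0.07. The causes were not tested.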
